A study of Bos taurus with 20 samples.

Results

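The small leucine-rich proteoglycans (SLRPs) are a family of secreted matrix proteins, and 9 of their genes are described here: DCN (decorin), BGN (biglycan), ASPN (asporin), LUM (lumican), FMOD (fibromodulin), PRELP, OMD (osteomodulin), OGN (osteoglycin) and PODN (podocan). They were chosen by symbol from the table of raw counts, in which all 9 were found among 33063 named genes, and all 9 were among the 12900 genes that passed the filter on low counts and were tested. The libraries were made from total RNA of 20 bovine mesenchymal stem cell (MSC) clones, with 1 library per clone: 10 adipogenic (A) clones, which stained for lipid after adipogenic differentiation, and 10 non-adipogenic (N) clones, which did not. Each clone is named by its animal and its clone number. Animals 22 and 23 contributed 4 clones of each kind, and animals 17 and 20 contributed 1 of each kind.

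All clones came from visceral fat of young Holstein Friesian × Aberdeen Angus calves, each was grown from a single sorted cell in medium with serum and bFGF, and none had been differentiated when its RNA was taken. A clone is 1 founder cell and its progeny, with 1 library. The spread among clones of 1 animal therefore holds differences among founder cells together with those of culture and library preparation. With 1 clone per condition in animals 17 and 20, these animals have no spread of their own.

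SLRPs are short proteins built around leucine-rich repeats, most of which carry chondroitin, dermatan or keratan sulfate chains. They bind collagen and set the width and spacing of its fibrils, and several also bind growth factors of the TGF-β family or cell surface receptors. In adipose tissue they are made mostly by stromal cells, in the matrix of which fat cells form.

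Total counts per clone ranged from 14908802 to 43111345 in N clones and from 14615493 to 29185355 in A clones. The 9 genes together took between 0.102% and 0.471% of the counts of an N clone (median 0.285%) and between 0.147% and 0.496% of those of an A clone (median 0.272%). Of 8 MSC markers, 0 differed between the groups by edgeR's test (adjusted p under 0.05), against 20.6% of all genes tested. At unadjusted p under 0.05 the number was also 0, against 36.1% of all genes. The summed level of these markers was 6059 to 17721 CPM (counts scaled to a common library size, corrected by TMM factors) in N clones and 12020 to 17664 CPM in A clones. The N clones 22-5 and 22-9 stood apart from the others. Their summed level over 9 mesothelial markers was 9419 and 6741 CPM, whereas the other 8 N clones had 8.82 to 314 CPM and the A clones 8.58 to 1131 CPM. The keratin KRT8 was at 4779 and 2727 CPM in these clones. The MSC marker THY1 was at 0.395 CPM in clone 22-5 and 31.0 CPM in clone 22-9. PDGFRA, another marker of that list, was at 167 and 159 CPM, within the 84.5 to 516 CPM of the other N clones. The main counts of called genes and some of the spreads are therefore also given without clones 22-5 and 22-9, an alternative added after seeing the data. Of 8 proliferation markers 6 were lower in A clones, led by CDK1, AURKB and TOP2A, and 0 were higher, and of 8 tested smooth muscle and pericyte markers 3 were higher (NOTCH3, CSPG4 and MYH11) and 0 lower. Without clones 22-5 and 22-9, these counts were 2 (CDK1 and AURKB) and 2 (NOTCH3 and CSPG4). Of all genes tested, 10.3% were higher and 10.3% lower in A clones, and 8.27% and 5.91% without these 2 clones. The summed level of the proliferation markers was 106 to 518 CPM in N clones and 29.2 to 320 CPM in A clones, and that of the smooth muscle and pericyte list 1086 to 10058 and 4428 to 11732 CPM. The part of these cell and growth markers in the proteoglycan results was not tested.

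The first comparison asked whether proteoglycan transcripts differ between clones that can and cannot form fat cells. None of the 9 members passed edgeR's quasi-likelihood test with animal as a block at an adjusted p under 0.05 (0 of 9; Benjamini-Hochberg adjustment over all genes), against 20.6% of all genes tested in either direction. At an unadjusted p under 0.05, 4 of 9 were higher in A clones (OGN, ASPN, OMD and PODN) and 0 were lower, against 17.7% of all genes higher and 18.5% lower (36.1% in either direction). The count in either direction moved with single libraries. It was 1 without the N clone 22-9 or the A clone 23-68, and 2 without 22-17, 23-22, 23-23, 23-74 or 23-62. With any other clone left out it was at most 5. FMOD, lower in A clones, was among the 5 without clone 23-14. With counts summed per animal and condition the count was 1. This was FMOD, which was lower in A clones (log2 fold change -0.89, edgeR adjusted p = 0.307). Shares of all genes were not computed for the fits with 1 clone left out or with summed counts. The median log2 fold change of A against N clones was 0.80 over the 9 members and -0.01 over all genes, and the median size of the change regardless of sign was 0.80 against 0.25. The number of members whose A and N clones did not overlap in level was 0, against 0.318% of all genes. In bulk RNA of a clone, fewer cells that make a transcript and less of it per cell cannot be told apart.

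**Figure D1:**
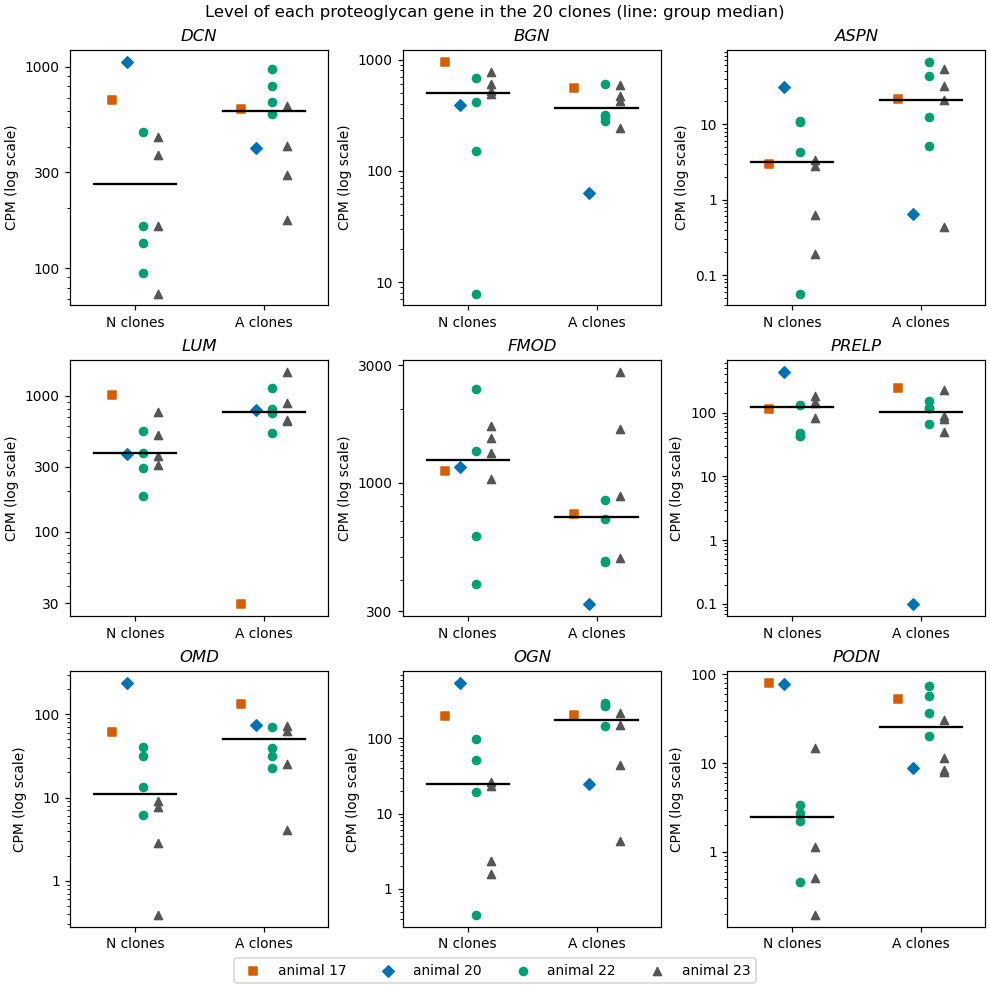
Level of each of the 9 genes in CPM (vertical axis, log scale) in the 10 N and the 10 A clones, with 1 point per clone, colours and shapes for the animal, and a line at the group median. The A and N clones overlap in every panel, and for PODN, OGN and OMD the N clones of animals 17 and 20 lie above all N clones of animals 22 and 23, at 60.7 against at most 40.8 CPM for OMD in clone 17-23.

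DCN, the best known member of class I of the family, covers collagen I fibrils and binds TGF-β. Its level ran from 74.6 CPM in clone 23-74 over a median of 263 CPM to 1060 CPM in clone 20-15 among N clones, and from 174 CPM in clone 23-108 over a median of 602 CPM to 974 CPM in clone 22-16 among A clones. The lowest 5 N clones lay below every A clone, while the N clone 20-15 lay above all of them. N clones averaged 365 ± 316 CPM and A clones 555 ± 242 CPM (SD over 10 clones each), a log2 fold change of 0.80 (SE 0.432, 95% interval -0.11 to 1.71, edgeR adjusted p = 0.188).

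BGN, the closest relative of DCN and a ligand of Toll-like receptors when soluble, did not share that pattern. It ran from 7.85 CPM (139 counts, clone 22-5) over 502 CPM to 959 CPM (clone 17-23) in N clones, and from 63.7 CPM (clone 20-106) over 370 CPM to 601 CPM (clone 22-121) in A clones. Clone 22-5 was lower than every other clone, and the other clones of both groups overlapped widely. The log2 fold change was -0.39 (SE 0.491, 95% interval -1.42 to 0.65, edgeR adjusted p = 0.595).

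ASPN, the third class I member, has a run of aspartate in place of the usual attachment sites for sulfated chains and can bind TGF-β1. In N clones it ran from 1 count in clone 22-5 over a median of 3.12 CPM to 31.3 CPM in clone 20-15, and in A clones from 0.439 CPM in clone 23-108 over a median of 21.1 CPM to 67.7 CPM in clone 22-16. In A clones 4 values lay above every N clone, but the A clones 20-106 and 23-108 were among the lowest of all. The log2 fold change was 2.71 (SE 0.999, 95% interval 0.60 to 4.82, edgeR adjusted p = 0.0626), and of the 9 members this adjusted p was the smallest.

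Class II members carry keratan sulfate in many tissues. LUM, which regulates fibril width in the cornea and skin, ran from 183 CPM (clone 22-9) over 376 CPM to 1013 CPM (clone 17-23) in N clones, and from 29.4 CPM (clone 17-57) over 759 CPM to 1490 CPM (clone 23-14) in A clones. Apart from clone 17-57, the lowest A clone was at 528 CPM, above 7 of the 10 N clones. The log2 fold change over all 20 clones was 0.75 (SE 0.462, 95% interval -0.23 to 1.72, edgeR adjusted p = 0.252). Without animal 17, whose A clone is the low one, it was 1.06 and passed the test (adjusted p = 0.00935).

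FMOD, which binds collagen I next to its cross-linking sites, lay on the other side. Its level ran from 388 CPM (clone 22-5) over 1239 CPM to 2393 CPM (clone 22-18) in N clones, and from 319 CPM (clone 20-106) over 727 CPM to 2814 CPM (clone 23-14) in A clones. The highest and the lowest values of all 20 clones were both A clones. The log2 fold change was -0.58 (SE 0.354, 95% interval -1.32 to 0.17, edgeR adjusted p = 0.250).

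PRELP, which binds heparan sulfate and collagen near basement membranes, was at 42.2 to 433 CPM in N clones (median 123 CPM) and at 50.1 to 241 CPM in 9 of the A clones. The A clone 20-106 held 2 counts of PRELP in its whole library. Over all 20 clones the log2 fold change was close to 0 (SE 0.672, 95% interval -1.42 to 1.42, edgeR adjusted p = 0.999), and its sign depended on the normalization.

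OMD, a keratan sulfate proteoglycan first known from bone, ran from 0.389 CPM (8 counts, clone 23-74) over 11.1 CPM to 240 CPM (clone 20-15) in N clones, and from 4.06 CPM (clone 23-108) over 50.8 CPM to 133 CPM (clone 17-57) in A clones. Apart from clone 23-108, the A clones lay above the median of the N clones and below clone 20-15. Its log2 fold change was 1.51 (SE 0.662, 95% interval 0.12 to 2.91, edgeR adjusted p = 0.110).

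OGN, a class III member also called mimecan, ran from 0.452 CPM (8 counts, clone 22-5) over 24.8 CPM to 548 CPM (clone 20-15) in N clones, and from 4.32 CPM (clone 23-108) over 176 CPM to 291 CPM (clone 22-16) in A clones. In N clones 3 values lay below every A clone. The log2 fold change was 2.14 (SE 0.948, 95% interval 0.14 to 4.14, edgeR adjusted p = 0.114).

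PODN, a class V member found around smooth muscle and in the kidney, had the most N clones below every A clone among the members. It ran from 0.194 CPM (4 counts, clone 23-74) over 2.47 CPM to 80.8 CPM (clone 17-23) in N clones, and from 7.84 CPM (clone 23-62) over 25.2 CPM to 74.9 CPM (clone 22-11) in A clones. In N clones 7 values lay below every A clone, while the N clones 17-23 and 20-15 were above every A clone. The log2 fold change was 2.31 (SE 0.940, 95% interval 0.33 to 4.29, edgeR adjusted p = 0.0881).

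The calls depended on the test and on the animals used. DESeq2's Wald test on the same 20 clones with the same block called 4 of 9 members higher in A clones, against 14.3% of all genes: ASPN (adjusted p = 0.00672), PODN (0.00990), OMD (0.0232) and OGN (0.0256). limma-voom, with a random effect for animal, called 1, PODN (log2 fold change 2.76, adjusted p = 0.0285), against 19.9% of all genes in either direction. In the 16 clones of animals 22 and 23, a choice made after seeing the data, edgeR's test called 4 of 9 higher, against 9.80% of all genes. These were LUM at a log2 fold change of 1.06 (adjusted p = 0.0154), PODN at 3.10 (0.0227), ASPN at 3.09 (0.0333) and OGN at 2.73 (0.0403). Without the N clones 22-5 and 22-9, also left out after seeing the data, 0 of 9 were called by edgeR (8.27% of all genes higher, 14.2% in either direction), and the log2 fold changes were 0.45 for DCN, 1.74 for OGN, 1.67 for PODN, 2.47 for ASPN and -0.75 for BGN (adjusted p = 0.0623). The others were 1.35 for OMD, 0.57 for LUM, -0.76 for FMOD and -0.30 for PRELP. At an unadjusted p under 0.05, 1 of 9 was then higher (ASPN) and 2 were lower (BGN and FMOD), against 16.7% and 14.8% of all genes.

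**Figure D2:**
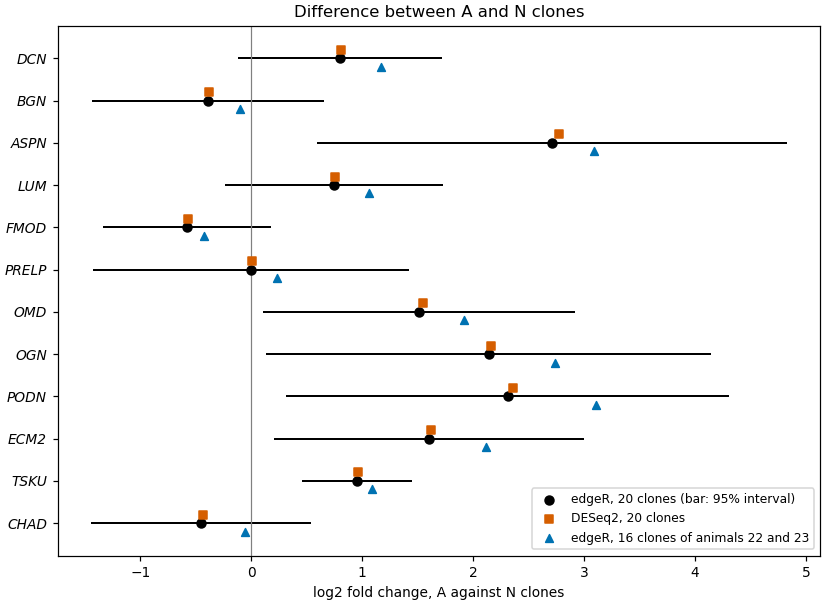
Log2 fold change of A against N clones (horizontal axis) for the 9 members and for ECM2, TSKU and CHAD. Circles with bars are edgeR's estimates over 20 clones with 95% intervals, squares are DESeq2's estimates, and triangles are edgeR's estimates over the 16 clones of animals 22 and 23. Estimates for PODN, OGN and DCN are larger in the 16 clones than in all 20, and of the members only ASPN, OMD, OGN and PODN have intervals above 0.

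The animals differed in the direction of most members. On mean log2 CPM, DCN differed by -0.14 between the A and the N clone of animal 17 and by -1.43 in animal 20, but by 2.07 in animal 22 and 0.69 in animal 23. PODN differed by -0.63 and -3.14 in animals 17 and 20, and by 4.48 and 3.19 in animals 22 and 23. OGN differed by 0.03, -4.45, 3.96 and 2.82 in animals 17, 20, 22 and 23. In these genes the single N clones of animals 17 and 20 lay within or above the range of the A clones. FMOD was the only member with 1 sign in all 4 animals, at -0.58, -1.86, -0.61 and -0.20, and it did not pass the test. ASPN differed by 2.83, -5.40, 2.79 and 3.30 in the same order. OMD differed by 1.13, -1.70, 1.05 and 3.04, so that both were lower in the A clone of animal 20 alone. LUM differed by -5.10, 1.06, 1.25 and 0.93, being lower in the A clone of animal 17 alone. BGN differed by -0.79, -2.61, 1.40 and -0.51, being higher in A clones in animal 22 alone. Values of animals 17 and 20 are differences between 1 A and 1 N clone, without replicates.

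Within animal 22, all 4 A clones lay above all 4 N clones for DCN, OGN and PODN. DCN was at 585 to 974 CPM in the A clones and at 94.9 to 472 CPM in the N clones, and PODN at 20.2 to 74.9 CPM against 0.452 to 3.41 CPM. This included the N clones 22-17 and 22-18, whose mesothelial markers summed to 48.7 and 26.8 CPM. Within animal 23, 3 of 4 A clones lay above every N clone for OGN, ASPN and OMD, and the fourth was clone 23-108 in each case. For BGN the order was the other way there, with 3 of 4 A clones below every N clone. How often all genes were ordered in such ways within animal 22 or animal 23 was not computed, so these counts have no background.

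Whether the level went with the animal was tested in the same fit. None of the 9 members passed edgeR's test over the 3 animal terms (0 of 9 at an adjusted p under 0.05, against 4.60% of all genes), and 2 had an unadjusted p under 0.05, OMD and PODN, against 22.0% of all genes. OMD had an adjusted p of 0.0898 and PODN 0.166. The difference between A and N clones was also compared between animals 22 and 23, the only animals with more than 1 clone per condition. In edgeR's interaction test 0 of 9 passed (0.0310% of all genes), and 0 had an unadjusted p under 0.05 (9.06% of all genes). PODN had the smallest adjusted p of the members (log2 difference of animal 23 minus animal 22 of -2.60, SE 1.39, adjusted p = 0.605). Without clones 22-5 and 22-9 the counts past the adjusted threshold were again 0 of 9 among animals (4.29% of all genes) and 0 of 9 in the interaction (0.106% of all genes). At an unadjusted p under 0.05 they were then 3 among animals (BGN, OMD and PODN) and 2 in the interaction (FMOD and OMD). The shares of all genes at that unadjusted threshold were not computed.

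The members varied more among clones than most genes did. After removal of animal and condition, the SD of log2 CPM among clones was 0.80 for FMOD, 1.02 for DCN, 1.19 for LUM, 1.53 for BGN, 1.60 for OMD, 1.94 for PODN, 2.10 for PRELP, 2.55 for OGN and 2.60 for ASPN. Over all genes tested the median was 0.34 and the 90th percentile 1.09. The value of PRELP rested on the A clone 20-106 and was 0.76 without it. Without clones 22-5 and 22-9 the value of BGN was 0.56 and that of OGN 2.07, against a median of 0.32 over all genes. FMOD stood at percentile 83.4 and ASPN at percentile 99.6 of all genes. These percentiles of spread are over genes of all levels and were not matched for level. By mean log2 CPM, ASPN stood at percentile 23.1, PODN at 30.1, OGN at 69.1 and FMOD at 99.2. Among N clones alone, the highest level was 1213 times the lowest for OGN, 616 times for OMD, 415 times for PODN and 122 times for BGN, and among A clones it was 50.8 times for LUM. The lowest values fell in a few clones: clone 22-5 had the lowest BGN, FMOD, OGN, ASPN and PRELP of the N clones, and clone 23-74 the lowest DCN, OMD and PODN. Among A clones, 23-108 had the lowest DCN, OGN, ASPN and OMD, and 20-106 the lowest BGN, FMOD and PRELP.

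**Figure D3:**
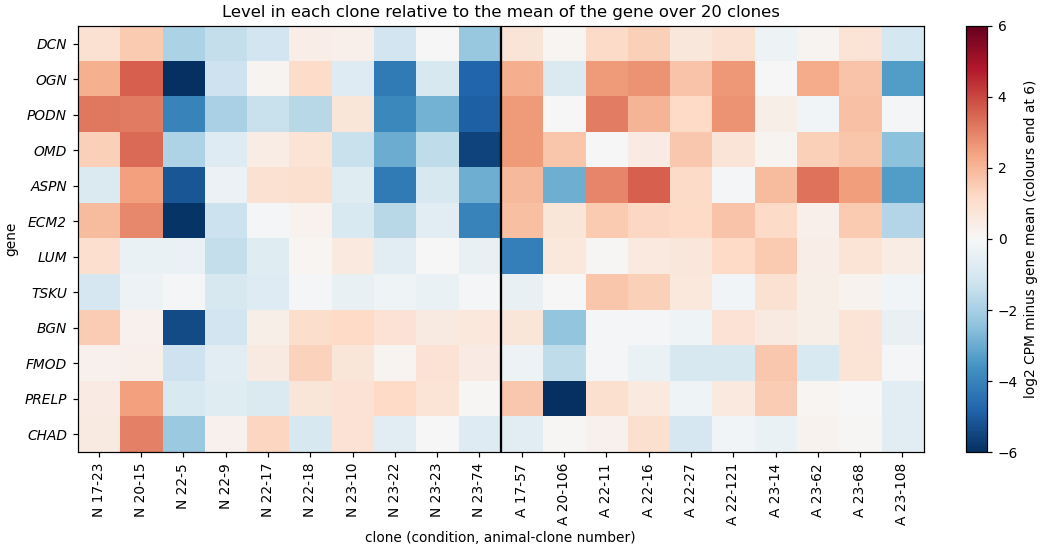
Log2 CPM of each gene minus its mean over the 20 clones (colour, ending at 6 above or below the mean) for the 9 members and ECM2, TSKU and CHAD (vertical axis) in the N clones and the A clones (horizontal axis). OGN, PODN, OMD, ASPN and ECM2 are low together in N 22-5 and N 23-74 and high together in N 20-15, while single low cells mark PRELP in A 20-106, LUM in A 17-57 and BGN in N 22-5.

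Members differed in how alike their levels ran across the 20 clones. DCN and OGN had a Spearman's rho of 0.91, DCN and PODN 0.91, OGN and ASPN 0.84, OGN and PODN 0.84, and OGN and OMD 0.72. The 10 pairs among DCN, OGN, OMD, ASPN and PODN ranged from 0.58 to 0.91 with a median of 0.70. The 6 pairs among BGN, LUM, FMOD and PRELP ranged from -0.06 to 0.57, the highest being BGN with FMOD, and the 20 pairs across these groups from -0.18 to 0.45, with a median of 0.20. DCN and FMOD, which both coat collagen I fibrils, had a rho of -0.02, and of 0.54 once animal and condition had been removed. This division of the members was drawn after the values were seen and is a description. It was less marked once animal and condition had been removed, when the median rho was 0.71 within the first group, 0.41 within the second and 0.50 across them. Without clones 22-5 and 22-9 the medians of the unadjusted rho were 0.65 within the first group, 0.19 within the second and 0.02 across them. DCN and OGN ran alike in both conditions, at 0.94 in N clones and 0.89 in A clones. All these values come from the same 20 libraries and share their depth and animals.

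**Figure D4:**
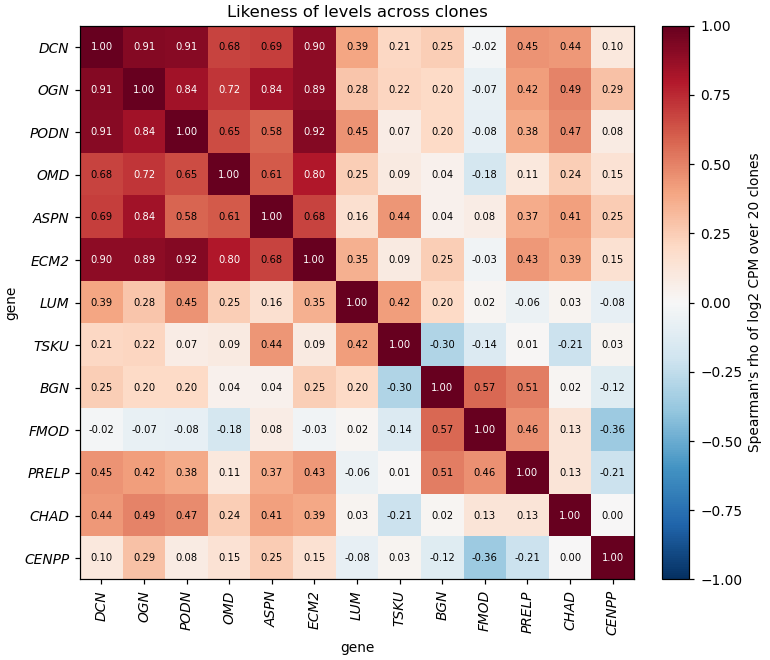
Spearman's rho of log2 CPM over the 20 clones (colour and printed value) between the 9 members and ECM2, TSKU, CHAD and CENPP (both axes). DCN, OGN, PODN, OMD, ASPN and ECM2 form a block of high values, BGN, FMOD and PRELP a weaker one at 0.46 to 0.57, and CENPP runs between -0.36 and 0.29 with the members.

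Of all other tested genes, those most like each member by rho over the 20 clones were ranked. The values given are the highest picked from all these genes, so part of their height comes from the picking. They still hold differences of animal and condition, and none was tested. For DCN they were ZC3H6 (0.92), ECM2 (0.90) and NREP (0.88). For PODN they were ECM2 (0.92), TPST1 (0.92) and ZC3H6 (0.91), so that ECM2, which codes for a leucine-rich matrix protein, and ZC3H6, a zinc finger gene, appeared beside both. For OGN they were TMEM100 (0.93), PROM1 (0.91) and FGF7 (0.90), a fibroblast growth factor. For OMD they were TPPP (0.92), EDIL3 (0.87) and LOC101909173 (0.87), and for ASPN ZNF274 (0.91), DENND2C (0.90) and SDR42E1 (0.86). The likest genes reached lower values for the other members. For LUM they were LOC530348 (0.85), PLAGL1 (0.80) and the cytokine gene IL15 (0.80). For PRELP they were ARF5 (0.82), KMT2E (0.80) and LOC101904840 (0.79). BGN ran most like MLLT10 (0.78), LOC101905708 (0.76) and RILP (0.75), and FMOD most like GRASP (0.78), TMEM168 (0.77) and JDP2 (0.77).

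The members also made up the family's counts in different proportions. FMOD took 26.4% to 56.8% of the counts of the 9 genes in N clones (median 48.7%) and 14.1% to 52.1% in A clones (median 24.7%). DCN took a median of 11.0% in N clones and 21.7% in A clones, LUM 15.6% and 27.4%, and BGN 16.7% and 11.6%. DCN counts per FMOD count ran from 0.0564 to 0.917 in N clones (median 0.217) and from 0.103 to 1.40 in A clones (median 0.887). With clones 22-5 and 22-9 left out, FMOD took a median of 48.8% and BGN 19.3% in N clones. The ranges overlapped, and these shares were not tested. Counts were not scaled for gene length, so a share can be compared between clones but not between genes.

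**Figure D5:**
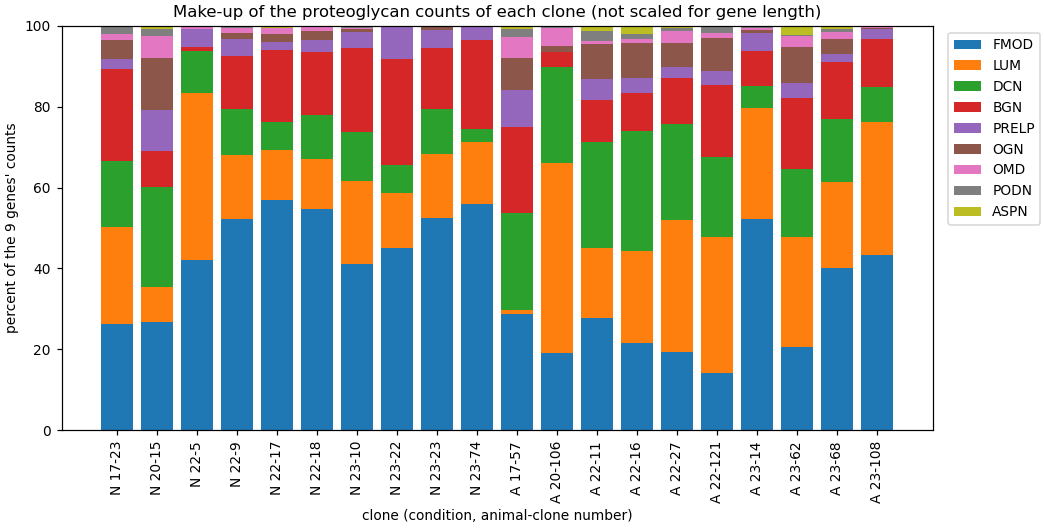
Percent of the counts of the 9 genes that each gene took (vertical axis, stacked to 100%) in the N clones and the A clones (horizontal axis), not scaled for gene length. FMOD took a median of 48.7% in N clones and 24.7% in A clones, and LUM nearly vanished in A 17-57, at 1.13%.

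Several members are neighbours in the genome. By the RefSeq annotation of a later assembly (ARS-UCD2.0), used here for gene order only, OGN, OMD, ASPN and ECM2 follow each other and all overlap CENPP, a centromere protein gene. LUM and DCN follow EPYC and KERA, and FMOD and PRELP lie next to OPTC. The overlap with CENPP is of whole gene spans, while reads were counted within exons, and overlap of exons was not examined. The counting is not stated to use strand. Whether any reads were shared between CENPP and OGN, OMD, ASPN or ECM2 was not tested. CENPP itself averaged 3.05 ± 0.836 CPM over N clones and 3.21 ± 1.77 CPM over A clones (log2 fold change 0.01, edgeR adjusted p = 0.979). Its rho was 0.29 with OGN, 0.15 with OMD and 0.25 with ASPN. The neighbours DCN and LUM had a rho of 0.39, FMOD and PRELP 0.46, OGN and OMD 0.72, and OMD and ASPN 0.61.

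Of 9 other genes of the family, 3 passed the filter on low counts. TSKU (tsukushi, a class IV member that binds BMP and other signalling proteins) rose in A clones, as the only one of the 3 past the test (background 10.3% of all genes higher). It was at 29.4 to 56.7 CPM in N clones and 43.6 to 192 CPM in A clones, with 7 A clones above every N clone, and each of the 4 animals showed this direction. Its log2 fold change was 0.96 (SE 0.230, edgeR adjusted p = 0.00992), and 0.85 (adjusted p = 0.0366) without clones 22-5 and 22-9. Its rho with the 9 members was at most 0.44, with ASPN. ECM2 was at 79.8 ± 122 CPM in N and 120 ± 51.9 CPM in A clones (log2 fold change 1.60, SE 0.658, edgeR adjusted p = 0.0909), and CHAD, a cartilage member, at 2.17 ± 2.95 and 1.13 ± 0.519 CPM (-0.45, adjusted p = 0.511). The other 6 had low counts in most clones and were left out by the filter: KERA had at most 14 counts and was at 0 in 17 clones, EPYC had at most 4 counts, CHADL at most 7, OPTC at most 13 and NYX at most 17. PODNL1, the closest relative of PODN, had 101 counts in the N clone 17-23 and 76 counts (4.67 CPM) in the N clone 20-15, and between 0 and 44 counts in the others.

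The genes that build and process these proteoglycans were compared in the same fit, against a background of 10.3% of all genes called higher and 10.3% called lower (8.27% and 5.91% without clones 22-5 and 22-9). Of 20 tested genes of chondroitin and dermatan sulfate synthesis, 6 rose in A clones and 0 fell, and 14 did not pass. Their median log2 fold change was 0.29. They included CHSY1, a chondroitin synthase, at 56.9 to 132 CPM in N and 99.9 to 205 CPM in A clones, 8 of which lay above every N clone (log2 fold change 0.78, SE 0.159, edgeR adjusted p = 0.00433). B4GALT7, which adds the first galactose of the linkage to the core protein, rose by 0.54 (SE 0.123, adjusted p = 0.00725), and PXYLP1, a phosphatase of the linkage xylose, by 1.31 (SE 0.305, adjusted p = 0.00854). All 3 were higher in A clones in all 4 animals. Without clones 22-5 and 22-9, 5 of the 6 called genes of the list, these 3 among them, were called again. CSGALNACT1 was called only then (log2 fold change 3.29, edgeR adjusted p = 0.00160). Of 9 tested keratan sulfate genes 1 rose, the sulfotransferase gene CHST6 (3.19, SE 0.697, adjusted p = 0.00600), and 1 fell, the sialyltransferase gene ST3GAL3 (-0.54, SE 0.0992, adjusted p = 0.00251), and CHST4 was at 0 counts in every clone. CHST6 was lower in the A clone of animal 20 (-0.73 on mean log2 CPM) and higher in A clones of the other animals. The median of this list was 0.01.

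Of 12 tested collagens that the family binds, 4 rose in A clones and 0 fell, and the median log2 fold change was 0.44. COL5A2 and COL5A3, chains of the collagen V that starts fibrils, rose by 0.51 (edgeR adjusted p = 0.00684) and 4.59 (adjusted p = 0.00999), and COL3A1 by 0.93 (adjusted p = 0.0126). All 4 called collagens were called again without clones 22-5 and 22-9. In animal 20 the A clone was lower for COL5A3 (-0.86 on mean log2 CPM), COL5A1 (-0.46) and COL3A1 (-0.06). COL3A1 was also lower in the A clone of animal 17 (-0.35). The remaining differences by animal of these genes were positive, as were those of COL5A2 in each of the 4 animals. COL5A3 was at 0 to 4.95 CPM in N clones and 2.60 to 174 CPM in A clones, while COL3A1 was at 3655 ± 1914 and 6529 ± 1388 CPM. Of 15 other matrix partners 1 rose, the basement membrane gene NID2 (1.95, SE 0.318, adjusted p = 0.00125), and 1 fell, FBLN2 (-1.15, SE 0.393, adjusted p = 0.0470; 0.0831 without clones 22-5 and 22-9), with a list median of -0.15. Of 11 proteases and fibril assembly genes 2 rose and 0 fell, with a median of 0.43. BMP1, the protease that trims procollagens and the pro-forms of DCN, BGN and OGN, averaged 179 ± 55.3 CPM over N clones and 365 ± 83.9 CPM over A clones, with 9 A clones above every N clone (log2 fold change 1.04, SE 0.142, edgeR adjusted p = 0.000476). ADAMTS4, a protease of large proteoglycans, rose by 0.94 (adjusted p = 0.0314; 0.0618 without clones 22-5 and 22-9), and TLL1, a relative of BMP1, was at 0 counts in every clone. ADAMTS4 was lower in the A clone of animal 17 (-0.35 on mean log2 CPM) and higher in A clones of the other animals.

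Of 21 tested ligands and receptors that SLRPs are known to bind, 4 rose and 2 fell, and the list median was 0.25. With clones 22-5 and 22-9 left out, 3 rose (TLR2, TGFBR1 and TGFB1) and 0 fell. TLR2, a receptor of soluble BGN, averaged 0.760 ± 0.773 CPM over N clones and 4.81 ± 3.06 CPM over A clones (log2 fold change 2.67, SE 0.483, edgeR adjusted p = 0.00212). The TGF-β receptor gene TGFBR1 rose by 0.77 (SE 0.157, adjusted p = 0.00410) and TGFB1, which codes for a ligand held by DCN, BGN, FMOD and ASPN, by 1.11 (SE 0.303, adjusted p = 0.0180), each higher in A clones in all 4 animals. LRP6, a Wnt co-receptor, fell by 0.48 (adjusted p = 0.0195) and EGFR, a receptor that DCN binds, fell by 1.10 (adjusted p = 0.0407). CCN2 and CCN4 entered the list under their older symbols in the table, CTGF and WISP1, and did not pass (log2 fold changes 0.46 and -1.60, adjusted p = 0.214 and 0.0753).

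Of the remaining cell type lists, 2 of 5 tested pre-adipocyte and adipocyte genes rose (PPARG and PLIN1) and 0 fell, and 1 of 7 tested mesothelial genes fell (MSLN). The only tested macrophage gene, CD68, rose. Of all genes tested, 10.3% rose and 10.3% fell (8.27% and 5.91% without clones 22-5 and 22-9). Without clones 22-5 and 22-9 PPARG and CD68 were called again and PLIN1 and MSLN were not. KRT8 was then called higher in A clones (edgeR adjusted p = 0.0458), as only N clones with high KRT8 had been left out. It was at 585, 446 and 159 CPM in the A clones 22-11, 22-16 and 23-62, and at most 13.3 CPM in the other A clones. None passed edgeR's test of 4 endothelial, 1 tendon, 2 osteogenic and 3 chondrogenic genes. Of these, 1, 0, 0 and 0 had an unadjusted p under 0.05, against 36.1% of all genes. The endothelial gene CLDN5 was at 0 counts in every clone.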

How the data were processed

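RNA of 20 undifferentiated bovine MSC clones had been sequenced as 2 x 150 bp reads from directional libraries. The values the authors deposited are raw counts of reads per gene for each clone. Per the labels, reads were handled with bcl2fastq 2.20, Trimmomatic 0.36, STAR 2.5.2b and featureCounts of Subread 1.5.2 on ARS-UCD1.2, and unique reads within exons were counted. The strand setting is not given in the sources used here. A row without a name (0.113% to 0.333% of a clone's counts) was not used, and 0 columns came from outside the series.

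The counts were analysed with edgeR 4.0.16 in R 4.3.3 (TMM, default filter on the condition, robust quasi-likelihood F test, Benjamini-Hochberg adjustment over 12900 genes), with animal as a block, after the paired design of the study. SEs are the log2 fold change over the square root of F. The pairing comes from the animals: the correlation between the mean deviations of an animal's A and N clones was 0.253 for animal 17, 0.193 for 20, 0.241 for 22 and 0.440 for 23. The animal terms were tested in the same fit, and the interaction in the 16 clones of animals 22 and 23 (12915 genes). Log2 CPM used a prior count of 2. The tests were also run on simulated counts, with large changes and with the dispersion capped. Those runs do not show how the tests behave for the most variable members.

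All members, and all other SLRP genes in the table, are named. Of each other list, up to 3 called genes per direction are named, by smallest adjusted p, and for each member the 3 genes of highest rho. Other genes named were chosen after values were seen, and CCN2 and CCN4 were matched by older symbols. The members and lists were chosen with earlier results of these data known. Alternatives were no animal block, DESeq2 1.42.0 size factors and Wald test, upper-quartile normalization, 2 other filters, limma-voom (limma 3.58.1), no robust dispersion, summed counts, and each animal or clone left out. No annotation of the counted build was used, so no coordinates are given. The depth limits members with a few counts in a clone, whose values carry the counting error of those counts.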

Additional observations from a re-analysis of the deposited data

Results flagged for a closer look

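In 6 of 24 groups of 10 clones examined (9 members and 3 relatives, in N and in A clones), 1 clone lay far from the others on the log2 CPM scale, its gap to the next clone divided by the whole range being above Dixon's 95% critical value for 10 samples. Chance flags about 1 in 20 groups, or 1.2 of these 24. In each case the clone was the lowest of its group.

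LUM was at 29.4 CPM (431 counts) in the A clone 17-57, against 528 CPM or more in the other A clones (gap 0.736). PRELP was at 2 counts in the A clone 20-106, against 50.1 CPM or more in the others (0.778), and BGN in the same clone was at 63.7 CPM, against 240 CPM or more (0.591). Clones 17-57 and 20-106 are the only A clones of their animals, so clone and animal cannot be told apart there. BGN was at 7.85 CPM in the N clone 22-5, against 149 CPM or more in the other N clones (0.612). That clone was also the one with the highest summed mesothelial markers (9419 CPM). Of the MSC markers, THY1 was at 0.395 CPM and PDGFRA at 167 CPM in it. The part of these markers in its BGN level was not tested. In the A clone 23-108, OMD was at 4.06 CPM, against 22.5 CPM or more in the other A clones (0.488), and ECM2 at 15.6 CPM, against 65.4 CPM or more (0.580).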

How the results depend on the processing

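The number of members past the test between A and N clones was 0 with edgeR over 20 clones, and also 0 without the animal block (no replicate block; 1 of 9 at unadjusted p under 0.05), with upper-quartile normalization, DESeq2 size factors, no filter, no robust dispersion or summed counts, without animal 22 or animal 23, and without the N clones 22-5 and 22-9. A minimum of 10 counts in every clone also gave 0, but tested only 4 members. It was 4 with DESeq2's Wald test, 1 with limma-voom, 1 without animal 17 (LUM), 3 without animal 20 (OGN, ASPN and PODN) and 4 in the 16 clones of animals 22 and 23. With 1 clone left out at a time it ranged from 0 to 3, and differed from 0 for 7 of 20 clones: 17-23 and 17-57 (LUM), 20-15 and 20-106 (OGN, ASPN and PODN), 23-10 (PODN), and 22-121 and 23-108 (ASPN). Leaving out either clone of animal 17 or 20 removes that animal's contrast. The share of all genes called was not computed for the fits with an animal or 1 clone left out, so these counts have no background. Estimates depended on the block and on single animals. Without the block the log2 fold changes of OGN, OMD and PODN were 0.74, 0.38 and 0.74, and with summed counts those of DCN, LUM and PODN were 0.10, 0.03 and 0.57. Without animal 22 DCN was at 0.11 and PODN at 0.75. The sign of PRELP turned from -0.0017 to 0.0058 with DESeq2 size factors, 0.0040 with upper-quartile normalization, 0.0071 with DESeq2, 0.33 without animal 20, 0.24 without animal 23, 0.24 in the 16 clones, and between -0.24 and 0.33 with 1 clone left out, and BGN was at 0.0553 with limma-voom. The cause of these differences was not tested. FMOD stayed negative under all 35 alternatives, from -1.01 to -0.33, and never passed. The number of members that differed among animals was 0, and 0 to 1 with 1 clone left out (1 without 17-23, 20-15, 23-10 or 20-106), and that of members whose difference depended on the animal was 0 in every alternative run. With a few counts in a clone, as for ASPN, OGN and PODN in clone 22-5, the depth limits the precision of the difference.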
